A study of Mus musculus with 9 samples.

Results

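The 10 genes described here encode proteins with which the intestinal epithelium meets bacteria, and the receptor that carries IgA into the lumen. They were chosen by name as rows of the deposited expression table, and all 10 (Reg3b, Reg3g, Reg4, Ang4, Lyz1, Lypd8, Lcn2, Saa1, Saa3 and Pigr) were found among the 54146 genes listed. RNA-seq was performed on colonic mucosa of 9 C57BL/6J mice at 15 wk of age, and per the methods the RNA came from colonic crypts. The study asked which genes in the mucosa of mice with an Apc mutation differ when p16 epimutation is added. The control group held 5 ApcMin/+ mice (2 females and 3 males), which carry a heterozygous germline mutation of Apc. The second group held 4 ApcMin/+; p16cis/cis mice (3 females and 1 male), which carry the same Apc mutation and, on both alleles, a knocked-in element at the p16 promoter that favors its DNA methylation. Both alleles are germline, so they are present in every cell of the mouse, and each library came from 1 mouse. There was no group without the Apc mutation, so nothing here separates the genes from the effect of ApcMin/+ itself.

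The colon is covered by a single layer of epithelial cells that keeps a dense bacterial community at a distance. Goblet and deep crypt secretory cells, absorptive colonocytes and, in the small intestine, Paneth cells release lectins, lysozyme, ribonucleases and other proteins that bind or kill bacteria, many of them induced through bacterial sensors and cytokines such as IL-22. Plasma cells in the lamina propria make dimeric IgA, which the polymeric immunoglobulin receptor on the basal side of epithelial cells takes up, moves across the cell and releases with a part of the receptor attached.

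The libraries held 13523500 to 17885918 reads on genes per mouse. The values below are normalized counts, that is, reads per gene scaled by the size factor of the library. In bulk mucosa, fewer cells of a type and less RNA per cell cannot be told apart. The sex of the labels was matched by Xist, with 6021 or more normalized counts in each of 5 females and 24 or fewer in each of 4 males. Cdkn2a, the gene of p16, was listed at 0 in every library of both genotypes, where 3 reads would be 2.85 to 4.79 normalized counts, so it gives no check of the genotype labels. Mitochondrial genes took 8.74% to 15.6% of the reads in ApcMin/+ mice and 19.3% to 29.8% in ApcMin/+; p16cis/cis mice, with no overlap between the genotypes. The part of this difference in any result below cannot be told apart from genotype in these groups. All 10 genes of the epithelial markers that were tested (Epcam, Cdh1, Krt8, Vil1 and 6 others) missed the adjusted p threshold, and their summed normalized count was 270541 to 433737 in ApcMin/+ mice and 287107 to 370065 in ApcMin/+; p16cis/cis mice.

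The genotypes differed in 1 of the 10 genes. Reg4, a secreted lectin of goblet and deep crypt secretory cells, was 2.67-fold higher in ApcMin/+; p16cis/cis mice than in ApcMin/+ mice, on the scale of log2(normalized count + 1). Ang4, a bactericidal ribonuclease, had the largest mean difference of the 10 but an adjusted p of 0.0532. Pigr, the IgA transporter, was 1.28-fold higher on that scale, with an adjusted p of 0.283 in limma and 0.0196 in DESeq2. The lectins Reg3b and Reg3g, lysozyme Lyz1, lipocalin Lcn2, the serum amyloid genes Saa1 and Saa3, and Lypd8 had differences smaller than the spread between mice. A gene was called when its limma adjusted p (Benjamini-Hochberg over the 14410 genes that reached 10 normalized counts in 4 or more mice) was under 0.05 and its fold change over 2. By this rule 1 of 10 genes was called, all 10 having passed the filter, while 3.48% of all genes tested were called. An adjusted p under 0.05 with no minimum fold was reached by 1 of 10, against 16.9% of all genes tested. Groups that did not overlap were seen in 0 of 10, against 16.2% of all genes tested. An unadjusted p under 0.05 was reached by 2 of 10, Reg4 and Ang4, against 33.2% of all genes tested. Of the 10 log2 fold changes 5 were above 0 and 5 below, with a median of 0.08, where the median of all genes tested was -0.0041. With so few genes called, the count moved easily. It was 0 with DESeq2, with sex as a covariate, in females only and without each of ApcMin/+ replicates 2, 3 and 4 and ApcMin/+; p16cis/cis replicates 2, 3 and 4. It was 2, Reg4 and Ang4, with the replicate block and without ApcMin/+ replicates 1 or 5.

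**Figure D1:**
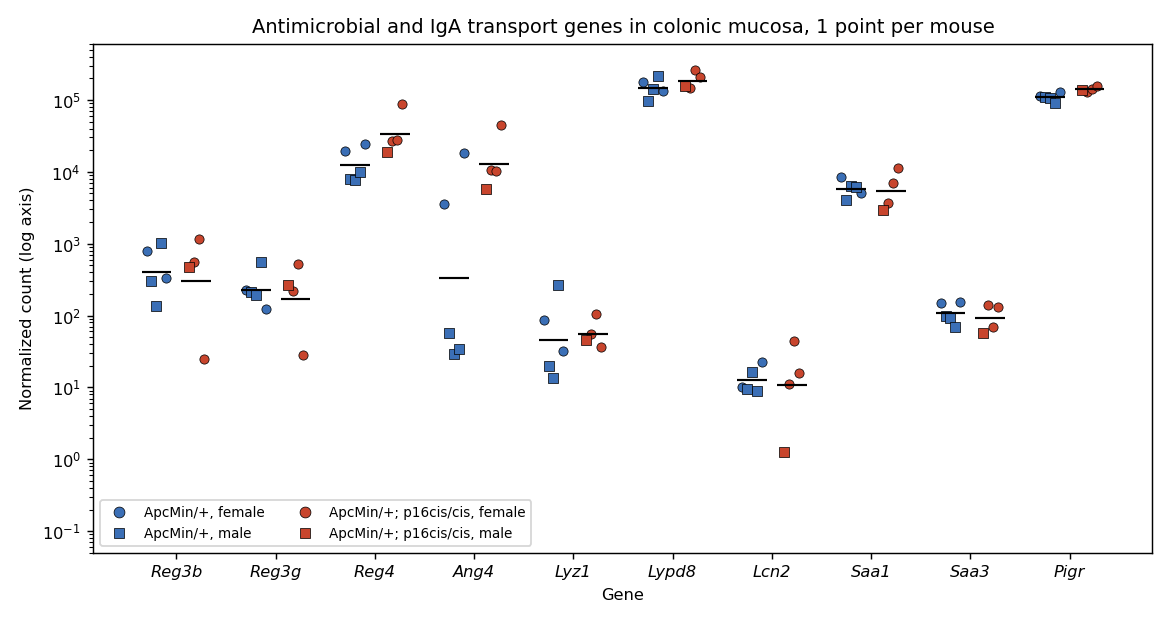
Normalized count (log axis) of each of the 10 genes in each mouse, with blue for 5 ApcMin/+ mice, red for 4 ApcMin/+; p16cis/cis mice, circles for females, squares for males, and a line at each group's mean of log2(normalized count + 1) turned back to a count. The 2 groups overlap for every gene, Ang4 spans the widest range, and Pigr the narrowest.

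**Figure D2:**
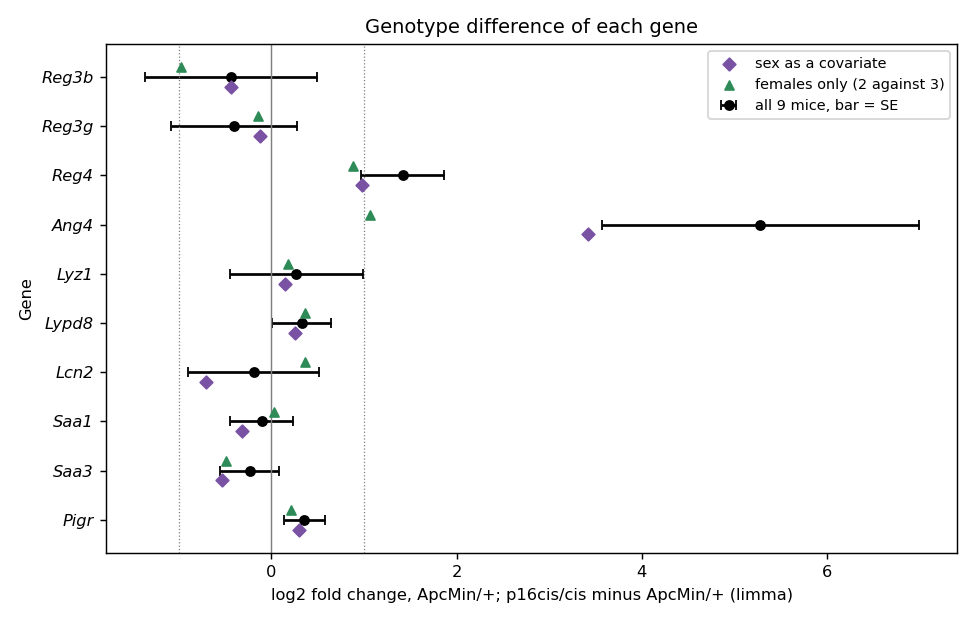
The log2 fold change of each gene, ApcMin/+; p16cis/cis minus ApcMin/+, from limma on all 9 mice (black, bar = SE), with sex as a covariate (purple diamonds) and in females only (green triangles), where dotted lines mark a fold change of 2. Reg4 at 1.42 and Ang4 at 5.28 lie right of the dotted line in the fit of all 9 mice, and both move left once sex is taken into account.

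Reg3b and Reg3g are related genes for secreted C-type lectins that bind the peptidoglycan of bacteria, and Reg3g is known for keeping Gram-positive bacteria away from the epithelial surface. In the GRCm38 annotation both lie on chromosome 6, Reg3b from 78370657 to 78373466 on the plus strand and Reg3g from 78466269 to 78468872 on the minus strand. Normalized counts of Reg3b were 779, 303, 135, 1026 and 331 in ApcMin/+ replicates 1 to 5, and 469.8, 559.9, 1172 and 25.1 in ApcMin/+; p16cis/cis replicates 1 to 4. The highest and the lowest of the 9 mice were both of the ApcMin/+; p16cis/cis genotype, and the other 2 lay within the range of the controls. The genotype difference was -0.44 on the log2 scale (SE 0.93, limma adjusted p = 0.781). Normalized counts of Reg3g were 223, 214, 193, 552 and 123 in ApcMin/+ mice and 265, 219, 529 and 28.2 in ApcMin/+; p16cis/cis mice. Again 1 mouse of each genotype stood high (ApcMin/+ replicate 4 and ApcMin/+; p16cis/cis replicate 3), and ApcMin/+; p16cis/cis replicate 4 was the lowest, with 18 reads. The group means were alike, 261 ± 167 (SD, n = 5) and 260.2 ± 206 (SD, n = 4), and the log2 fold change of Reg3g was -0.41 (SE 0.68, limma adjusted p = 0.717). The low mouse set the sign of both values. Without it the log2 fold change was 0.74 for Reg3b (adjusted p = 0.443) and 0.45 for Reg3g (adjusted p = 0.538).

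The 2 genes varied together from mouse to mouse. Over the 9 mice, Pearson's r of log2(normalized count + 1) was 0.92 (exact permutation p = 0.0017) and Spearman's rho 0.88 (exact permutation p = 0.00308). The values adjusted by Benjamini-Hochberg over the 5 pairs of genes compared were 0.00852 and 0.0154. Without the 2 mice farthest from the median of Reg3b (ApcMin/+; p16cis/cis replicate 4 and ApcMin/+ replicate 3), r was 0.84, and after subtracting the genotype means it was 0.91. Among the 14410 genes tested, those whose pattern over the 9 mice was most like that of Reg3g were Cfb (r = 0.93), Mrps36 (r = 0.92) and Reg3b itself. These r, like those below for Reg4, Lypd8 and Pigr, were picked as the highest of 14410 over only 9 mice. They are high by that choice, and none was tested. Cfb, a factor of the alternative complement pathway, ranged from 56.4 normalized counts in ApcMin/+; p16cis/cis replicate 4 to 129 in replicate 3. Because the 2 genes moved together, the sequence before each start site is shown. Sequences are from RefSeq (GRCm38.p6), and capitals mark the motifs found by a search of both strands in the 250 bases before each start site. The motifs were the STAT motif TTCNNNGAA, the IRF motif (GAAA, 2 bases of any kind, GAAA), the NF-kB motif and the TATA box TATAAA, and the matches found did not overlap. Of 32851 RefSeq windows of that length, 7.02% held the STAT motif, 2.98% the IRF motif, 7.25% the NF-kB motif and 12.4% the TATA box. The stretch of Reg3b is chr6:78370707-78370860 (plus strand), from position -178 to position -25 before the RefSeq start, and it lies between exons of the longer Reg3b gene model. The stretch of Reg3g is chr6:78468875-78469124 (minus strand), from position -250 to position -1.
Reg3b: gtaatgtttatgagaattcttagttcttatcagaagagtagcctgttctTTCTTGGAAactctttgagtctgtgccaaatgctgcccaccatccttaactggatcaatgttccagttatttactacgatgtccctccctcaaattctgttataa
Reg3g: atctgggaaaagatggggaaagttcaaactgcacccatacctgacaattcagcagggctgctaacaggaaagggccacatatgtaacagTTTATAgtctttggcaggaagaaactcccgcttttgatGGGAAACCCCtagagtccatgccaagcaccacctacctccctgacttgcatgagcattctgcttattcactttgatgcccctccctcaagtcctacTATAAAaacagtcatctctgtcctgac
In Reg3b the capitals are a STAT motif that begins 129 bases before the start, and a TATA box that begins 29 bases before it runs past the end of the stretch shown. In Reg3g the capitals are, from left to right, a TATA box on the reverse strand, an NF-kB motif 123 bases before the start and a TATA box 27 bases before it. The windows of Reg3b and Reg3g thus shared a TATA box at nearly the same distance and no other of the 4 motifs. Such matches are descriptions of the letters, and no binding was measured.

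**Figure D3:**
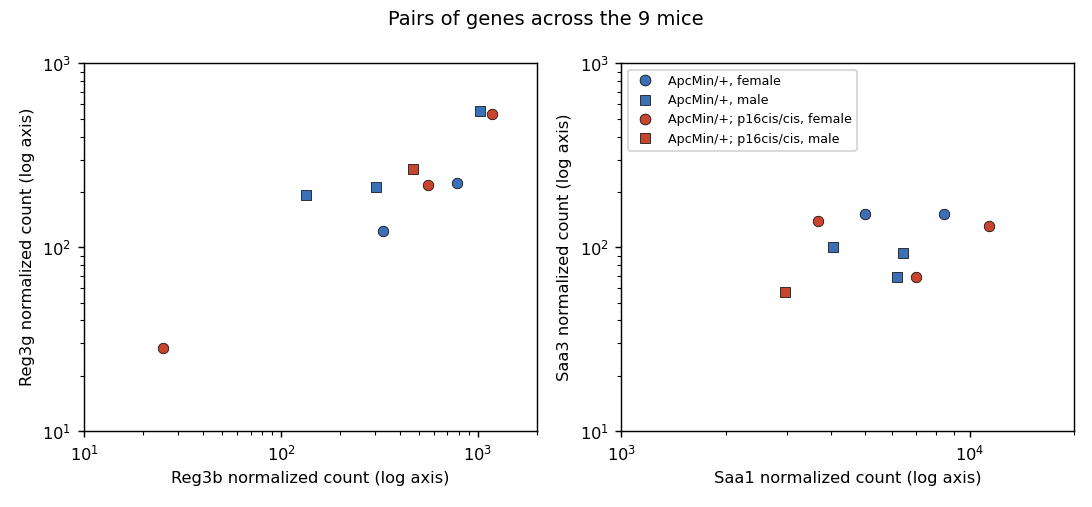
Normalized counts (both axes log) of Reg3b against Reg3g on the left and of Saa1 against Saa3 on the right, 1 point per mouse, with blue for ApcMin/+, red for ApcMin/+; p16cis/cis, circles for females and squares for males. The Reg3b and Reg3g points rise together (r = 0.92), while those of Saa1 and Saa3 are scattered (r = 0.32).

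Reg4 (chromosome 3, 98222156 to 98236748, plus strand) belongs to the same lectin family and marks the deep crypt secretory cells that sit between stem cells at the base of colonic crypts. Normalized counts of Reg4 were 19569, 7995, 7789.9, 9999 and 24376 in ApcMin/+ mice and 18976, 27069.6, 27365 and 87046 in ApcMin/+; p16cis/cis mice. Of the 4 ApcMin/+; p16cis/cis mice 3 lay above every control, and the fourth, the male, lay just under the 2 control females. The means were 13946 ± 7571 (SD, n = 5) and 40114 ± 31528 (SD, n = 4). Reg4 had a log2 fold change of 1.42 (SE 0.45, limma adjusted p = 0.0483), and the exact permutation test over the 126 splits of the 9 mice gave p = 0.0476 (two-sided, unadjusted), where the lowest possible is 0.00794. The call was a narrow one. In the fit without ApcMin/+; p16cis/cis replicate 4, which had 87046 normalized counts, the log2 fold change was 0.96 with an adjusted p of 0.129. Without control replicate 2, 3 or 4 the adjusted p was 0.107, 0.111 or 0.0546, and without ApcMin/+; p16cis/cis replicate 2 or 3 it was 0.0837 or 0.0659. DESeq2 gave an adjusted p of 0.0678 and edgeR 0.0438, and the replicate block 0.0320.

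Sex was unevenly spread over the genotypes, and Reg4 was also lower in males of the control group. The 3 ApcMin/+ males had 7789.9 to 9999 normalized counts, and the 2 ApcMin/+ females 19569 and 24376. In a model with a mean for each genotype and sex, chosen after seeing the data, females exceeded males among ApcMin/+ mice by 1.35 on the log2 scale (SE 0.44, unadjusted p of limma 0.0110, adjusted p = 0.678). With sex as a covariate the genotype difference of Reg4 was 0.98 (limma adjusted p = 0.0760), and in females only it was 0.88 (adjusted p = 0.264). Permuting genotype within sex gave an exact p of 0.025, the smallest that the 40 arrangements allow. The direction was thus kept within sex, with a smaller size. With the mitochondrial share as a covariate, a fit in which 0 genes passed and 798 had an unadjusted p under 0.05 in limma, the value turned to -0.20 (adjusted p = 0.974).

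Among the markers of goblet and deep crypt secretory cells, 1 of 12 tested passed the adjusted p threshold upward and 0 downward. Over all genes tested 16.9% passed in either direction. The median log2 fold change of these markers was 0.26. The one that passed was Spink4, a secreted trypsin inhibitor-like protein of goblet cells, with a log2 fold change of 1.41 (SE 0.32, limma adjusted p = 0.0139), past the threshold in 20 of 21 alternative settings. Of the 12 log2 fold changes 9 were above 0 and 3 below. Those of markers that did not pass ran from 1.81 for Retnlb (adjusted p = 0.0730), a resistin-like protein of goblet cells, to -0.89 for Zg16 (adjusted p = 0.0775). Kit, another marker of deep crypt secretory cells, had a log2 fold change of -0.27 (adjusted p = 0.123), Muc2 0.17 (adjusted p = 0.675) and Atoh1 -0.21 (adjusted p = 0.467). The summed normalized count of the list was 302377 to 464400 in ApcMin/+ mice and 320839 to 617976 in ApcMin/+; p16cis/cis mice, highest in the mouse with the highest Reg4. The part of these cells in the Reg4 difference was not tested. The genes whose pattern was most like that of Reg4 were Fam221a (r = 0.97), Gsdmcl2 (r = 0.96), a member of the gasdermin C family, and Zc2hc1c (r = 0.96). Like Reg4, Gsdmcl2 was low in the 3 ApcMin/+ males (602.9 to 768 normalized counts) and highest in ApcMin/+; p16cis/cis replicate 4 (8785).

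Ang4 (chromosome 14, 51763878 to 51773590, minus strand) encodes angiogenin 4, a ribonuclease that kills bacteria and is made by Paneth cells of the small intestine and by secretory cells of the colon. Normalized counts of Ang4 were 3609, 57.1, 29.3, 34.3 and 18151 in ApcMin/+ mice and 5747, 10664, 10172 and 45249 in ApcMin/+; p16cis/cis mice. The 3 controls with under 100 normalized counts were the 3 males, with 27 to 60 reads each, and of the 2 control females 1 lay below and 1 within the range of the other genotype. The highest control exceeded the lowest by 620.2-fold. The means were 4376 ± 7854 (SD, n = 5) and 17958 ± 18328 (SD, n = 4), a ratio of 4.10. On the log scale, where the low males weigh more, the difference was 5.28 (SE 1.71), with a limma adjusted p of 0.0532 and an exact permutation p of 0.0873. The count models gave a log2 fold change of 2.04 for DESeq2 (adjusted p = 0.398) and 2.03 for edgeR (adjusted p = 0.359). With sex as a covariate the value was 3.42 (limma adjusted p = 0.0577), and with the mitochondrial share as a covariate it turned to -1.37 (adjusted p = 0.946).

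In the model by genotype and sex, chosen after seeing the data, Ang4 was higher in ApcMin/+ females than in ApcMin/+ males by 7.68 on the log2 scale (SE 0.72, limma adjusted p = 0.00181). Only 9 of 14410 genes passed this contrast, with 938 at an unadjusted p under 0.05. Of those 9 genes 7 lie on the X or Y chromosome (Xist, Eif2s3y, Ddx3y, Kdm5d, Uty and 2 unnamed Y-linked loci), and the other 2 were Ang4 and Pla2g4c, a phospholipase A2 gene on chromosome 7 (4.93 higher in females, adjusted p = 0.000739). In females the genotype difference of Ang4 was 1.07 (SE 0.72, adjusted p = 0.379). In males it was 7.18 (SE 0.92, adjusted p = 0.0278), a value that rests on a single ApcMin/+; p16cis/cis male with 5747 normalized counts. The difference between these 2 values, male minus female, was 6.11 (SE 1.17, unadjusted p of limma 0.000374), and it did not pass after adjustment over all genes (adjusted p = 0.722), where 0 of 14410 interactions passed and 979 had an unadjusted p under 0.05. Permuting genotype within sex gave an exact p of 0.075. The labels carry no cage, litter or collection day, so these cannot be told apart from sex in the 3 control males.

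Because Reg4 and Ang4 were the 2 genes with an unadjusted p under 0.05, the stretches before their start sites are shown, chr3:98221906-98222155 (plus strand) for Reg4 and chr14:51773591-51773840 (minus strand) for Ang4, each from position -250 to position -1 in GRCm38.p6.
Reg4: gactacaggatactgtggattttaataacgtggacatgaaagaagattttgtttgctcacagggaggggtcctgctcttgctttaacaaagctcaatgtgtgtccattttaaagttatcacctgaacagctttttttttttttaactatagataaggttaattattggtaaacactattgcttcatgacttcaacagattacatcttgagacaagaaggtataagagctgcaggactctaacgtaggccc
Ang4: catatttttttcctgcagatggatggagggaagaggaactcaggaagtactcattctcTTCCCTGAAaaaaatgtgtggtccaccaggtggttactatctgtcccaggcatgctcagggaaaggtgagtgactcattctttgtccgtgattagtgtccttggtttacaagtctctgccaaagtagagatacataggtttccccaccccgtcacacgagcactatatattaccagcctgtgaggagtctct
In Ang4 the capitals are a STAT motif that begins 192 bases before the start. The window of Reg4 held none of the 4 motifs. Of the windows of the other genes, that of Saa3 held an IRF motif 125 bases before the start, and those of Pigr, Lcn2, Saa1, Lyz1 and Lypd8 (2 start sites) held none.

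**Figure D4:**
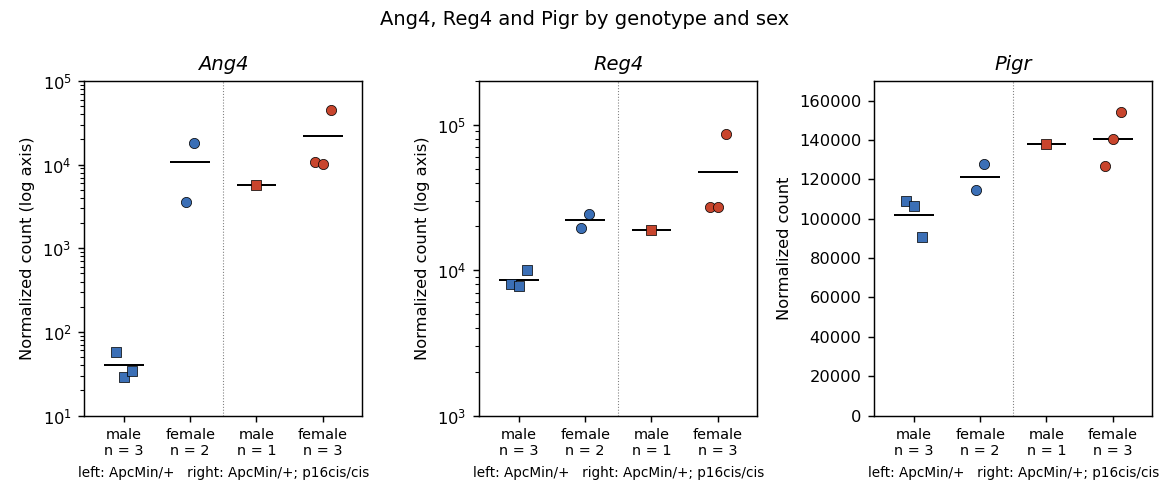
Normalized counts of Ang4 and Reg4 (log axes) and Pigr (linear axis from 0) in each mouse by genotype and sex, with a line at the arithmetic mean of each set of mice, blue for ApcMin/+ and red for ApcMin/+; p16cis/cis, circles for females and squares for males. The 3 ApcMin/+ males lie below all other mice for each of the 3 genes, by the widest margin for Ang4 (29.3 to 57.1 against 3609 and more).

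The pattern of Ang4, low in ApcMin/+ males and high in every other mouse, was shared by other genes, named here after their values were seen. Pla2g4c had 32.2 to 48.5 normalized counts in the 3 ApcMin/+ males and 683 to 2281 in the other 6 mice. Mptx1, a mucosal pentraxin of the intestinal epithelium, had 8405 to 17339 against 37541 to 208943, and Gsdmc4, of the gasdermin C family, 4309 to 5307 against 12329 to 30480.1. Since the mice fell into separate clusters for these genes, no correlation is given. Of genes tied to a distal position along the colon, 1 of 8 tested passed upward and 1 downward, where 16.9% of all genes tested passed. These were Hoxd10 (log2 fold change 1.35, past the threshold in 9 of 21 alternative settings) and B4galnt2 (-1.05, in 15 of 21). Of the 8 log2 fold changes 7 were above 0, with a median of 0.58. The summed normalized count of that list was 9770 to 14389 in ApcMin/+ mice and 11281 to 14180 in ApcMin/+; p16cis/cis mice. The part of position in the Ang4 pattern was not tested.

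Lyz1 (chromosome 10, 117287797 to 117292868, minus strand) encodes the lysozyme of Paneth cells, which cleaves bacterial peptidoglycan. Normalized counts of Lyz1 were 87.0, 19.97, 13.7, 264 and 31.8 in ApcMin/+ mice and 45.5, 55.8, 107 and 36.0 in ApcMin/+; p16cis/cis mice. All 4 values of the second group lay within the range of the controls, in which the highest mouse exceeded the lowest by 19.4-fold. Its log2 fold change was 0.27 (SE 0.72, limma adjusted p = 0.828), while the ratio of the means, 0.732, lay on the other side. In DESeq2 the value was -0.44 (adjusted p = 0.769). The defensins among the Paneth cell markers were near the limit of detection. Of 8 markers in the table, Defa20 was listed at 0 in every mouse and 2 were tested, Itln1 and Mmp7, neither past the threshold, and the other defensins reached at most 21.6 normalized counts. The list summed to 92.2 to 1076 in ApcMin/+ mice and 186 to 978 in ApcMin/+; p16cis/cis mice, with 39.0 to 1037 and 149 to 951 of Itln1 and 27.2 to 129.7 and 15.7 to 117 of Mmp7. The related gene Lyz2, expressed in macrophages, is identical to Lyz1 in 16.1% of the 50-base windows of the Lyz1 transcript. Lyz2 itself was lower in ApcMin/+; p16cis/cis mice, 26.1 ± 9.77 (SD, n = 4) against 78.8 ± 23.5 (SD, n = 5), a log2 fold change of -1.56 (SE 0.30, limma adjusted p = 0.00745). Reads of Lyz1 and Lyz2 may have been divided between the genes by the estimate of gene levels, so both values are uncertain to that extent.

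Lypd8 (chromosome 11, 58379043 to 58390728, plus strand) encodes a membrane-anchored, secreted protein of colonocytes that binds flagellated bacteria and hinders their movement. It was the most abundant of the 10 genes. Normalized counts of Lypd8 were 177549, 97857, 143834, 217511 and 133674 in ApcMin/+ mice and 153722, 145871, 259994 and 206070.0 in ApcMin/+; p16cis/cis mice. In both genotypes the values differed by at most 2.22-fold between the lowest and the highest mouse, and 1 ApcMin/+; p16cis/cis mouse lay above all controls. For Lypd8 the log2 fold change was 0.32 (SE 0.31, limma adjusted p = 0.510), and it was above 0 in each of 23 alternative settings, none of which passed. The markers of absorptive colonocytes, the cells that make Lypd8, held 2 of 10 genes past the threshold, both lower in ApcMin/+; p16cis/cis mice: Slc26a3, the chloride and bicarbonate exchanger, with a log2 fold change of -1.23 (adjusted p = 0.00848), and Alpi, intestinal alkaline phosphatase, with -1.60 (adjusted p = 0.0208). Over all genes tested 16.9% passed that threshold in either direction. The summed normalized count of the colonocyte list was 133024 to 278177 in ApcMin/+ mice and 93166 to 121113 in ApcMin/+; p16cis/cis mice, without overlap. Car1 was the largest part of that sum, and its own values overlapped, 64999.5 to 165058 and 40059.5 to 68015.5. Of the 10 log2 fold changes 9 were below 0 and 1 above. The part of this list in the Lypd8 values was not tested. Genes most like Lypd8 over the 9 mice included Srf (r = 0.95) and Chrd (r = 0.95).

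Lcn2 (chromosome 2, 32384633 to 32388252, minus strand) encodes lipocalin 2, which withholds iron by binding bacterial siderophores and rises strongly in inflamed mucosa. In these mice it was barely detected. Normalized counts of Lcn2 were 10.04, 9.51, 16.6, 8.9 and 22.7 in ApcMin/+ mice and 1.26, 11.2, 43.6 and 15.7 in ApcMin/+; p16cis/cis mice, which were 1 to 29 reads per library. The ApcMin/+; p16cis/cis mice held both the lowest value, a single read in the male, and the highest. Lcn2 had a log2 fold change of -0.19 (SE 0.71, limma adjusted p = 0.879), and without that male the value was 0.61 (adjusted p = 0.442). A difference between the genotypes was not detected at 1 to 29 reads per library and an SD within genotype of 1.24 on the log2 scale. The neutrophil markers, whose cells also hold lipocalin 2, were at the same low level apart from Ly6g. Of the 9 in the table Ly6g was the 1 tested, with a log2 fold change of 0.28 (limma adjusted p = 0.670). It had 453 to 1017 normalized counts in ApcMin/+ mice and 359 to 1594 in ApcMin/+; p16cis/cis mice. With Ly6g the list summed to 463 to 1045 and 365 to 1659, so most of the sum was Ly6g. Without Ly6g, the 8 other markers in the table summed to 4.75 to 56.6 normalized counts in ApcMin/+ mice and 1.26 to 64.6 in ApcMin/+; p16cis/cis mice, and Elane was at 0 in every mouse.

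Saa1 and Saa3 encode serum amyloid A proteins, acute phase proteins that bind retinol and are induced in the gut by bacteria that adhere to the epithelium. Both lie on chromosome 7, Saa1 from 46740497 to 46742980 and Saa3 from 46711998 to 46715700, on the minus strand. Normalized counts of Saa1 were 8457, 4052, 6429, 6173 and 4998 in ApcMin/+ mice and 2955, 3678, 7004 and 11354 in ApcMin/+; p16cis/cis mice. The second group again held both the lowest and the highest of the 9 mice, and the means were 6022 ± 1662 (SD, n = 5) and 6248 ± 3834 (SD, n = 4). The log2 fold change of Saa1 was -0.11 (SE 0.34, limma adjusted p = 0.860). Normalized counts of Saa3 were 152, 99.8, 93.7, 68.6 and 152 in ApcMin/+ mice and 56.8, 139, 69.1 and 130.02 in ApcMin/+; p16cis/cis mice. Within ApcMin/+ the 2 highest values were the females (mean 152) and the 3 lowest the males (mean 87.4), a log2 difference of 0.81 (SE 0.33, unadjusted p of limma 0.0351, adjusted p = 0.744). The genotype difference of Saa3 was -0.23 (SE 0.32, limma adjusted p = 0.649) and lay below 0 in each of 23 alternative settings, where none passed, and permuting genotype within sex gave an exact p of 0.05. Saa1 and Saa3 were not related over the 9 mice, with r = 0.32 (exact permutation p = 0.400, adjusted p = 0.50) and rho = 0.23 (exact permutation p = 0.552, adjusted p = 0.613), and r fell to -0.23 without 2 mice. Saa2, a near copy of Saa1 on the same chromosome, held 31.1% of the 50-base windows of the Saa1 transcripts. Saa2 was lower in ApcMin/+; p16cis/cis mice, 25.7 ± 16.3 (SD, n = 4) against 213 ± 144 (SD, n = 5), a log2 fold change of -2.70 (SE 0.71, limma adjusted p = 0.0240), so the division of reads between Saa1 and Saa2 leaves their values uncertain.

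Pigr (chromosome 1, 130826684 to 130852249, plus strand) encodes the polymeric immunoglobulin receptor. Normalized counts of Pigr were 114431, 108834, 106672, 90845 and 127928 in ApcMin/+ mice and 137981, 126937, 140530.0 and 154277 in ApcMin/+; p16cis/cis mice. Only the highest control, a female, at 127928, lay above the lowest ApcMin/+; p16cis/cis mouse at 126937. The means were 109742 ± 13417 (SD, n = 5) and 139931 ± 11237 (SD, n = 4), a ratio of 1.28. The log2 fold change was 0.36 (SE 0.22, limma adjusted p = 0.283), and between 0.21 and 0.44 in 23 alternative settings. The exact permutation test of Pigr alone gave p = 0.0238 (two-sided, unadjusted over the 10 genes), and within sex it gave an exact p of 0.075. DESeq2 gave an adjusted p of 0.0196, and edgeR 0.143. Whether the adjusted p of Pigr lay under 0.05 thus changed with the model, while its fold change stayed under 2 in each of them. Its spread within genotype was small, with an SD of 0.16 on the log2 scale, lower than that of 82.6% of the genes tested. The genotype difference of 0.36 was larger than this SD. The SE of limma also draws on the variance of other genes at that level, so 0.22 does not reflect the spread of Pigr alone. In ApcMin/+ mice the females (mean 121180) exceeded the males (mean 102117) by 0.25 on the log2 scale (SE 0.32, limma adjusted p = 0.857). The genes most like Pigr over the 9 mice were Brpf1 (r = 0.97), Git2 (r = 0.97) and Lyzl4 (r = 0.97). Brpf1 had 636 to 858 normalized counts in ApcMin/+ mice and 1008 to 1189 in ApcMin/+; p16cis/cis mice. Its r thus includes a difference between the genotypes, and no r within genotype was taken.

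Jchain and other genes of the IgA that Pigr carries were examined beside it. Of 13 tested genes of the IgA pathway, 0 passed upward and 3 downward, where 16.9% of all genes tested passed in either direction. Their median log2 fold change was -0.50. Jchain, which joins IgA into the dimers that Pigr carries, fell from 148 ± 106 (SD, n = 5) to 15.98 ± 2.55 (SD, n = 4) normalized counts, a log2 fold change of -2.65 (SE 0.64, limma adjusted p = 0.0175), past the threshold in 20 of 21 alternative settings. Igha, the constant region of IgA, measured 618 ± 371 (SD, n = 5) in the controls and 172 ± 69.3 (SD, n = 4) in the other genotype, a log2 fold change of -1.55 (SE 0.57, limma adjusted p = 0.0791). ApcMin/+ replicate 4 was low in both genes, with 17.8 and 100.4 normalized counts, inside or below the other genotype. The other 2 that passed were Fcgrt, the neonatal Fc receptor (-0.57, adjusted p = 0.0469), and Tgfbr1, a receptor of TGF-β (-0.50, adjusted p = 0.0162), while Ccl28, the chemokine with which epithelial cells attract IgA plasma cells, had -0.06 (adjusted p = 0.781). The markers of plasma cells and B cells summed to 206 to 3176 normalized counts in ApcMin/+ mice and 415 to 669 in ApcMin/+; p16cis/cis mice. Of 9 tested 1 passed, Jchain, and 8 log2 fold changes lay below 0 and 1 above (median -1.55). The stroma markers summed to 146 to 716 and 105 to 255, and 1 of 8 tested passed, Col3a1, downward. All 8 of their log2 fold changes lay below 0 (median -1.45). Of the macrophage markers 6 of 7 tested lay below 0 and 1 above (median -0.70). Of the T cell markers 6 of 9 lay below 0 and 3 above (median -0.21). The part of these cells in the Jchain values was not tested. How many plasma cells came with each sample was not measured.

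Of the inducers and receptors that act before these genes, 2 of 33 tested passed upward and 3 downward. Over all genes tested 16.9% passed in either direction, so this count is no more than that share. The median log2 fold change of the list was -0.0018. Il22, the cytokine that induces Reg3b and Reg3g, was listed at 0 in every mouse, in RNA that per the methods came from colonic crypts. Its level elsewhere in the mucosa was not measured. The IL-22 receptor gene Il22ra1 had 275 ± 82.2 (SD, n = 5) and 300.2 ± 122 (SD, n = 4) normalized counts. Cebpd, a transcription factor of the acute phase response, rose from 561 ± 139 to 1344 ± 475, a log2 fold change of 1.22 (SE 0.23, limma adjusted p = 0.00707). Nod1, a sensor of peptidoglycan fragments, had a log2 fold change of 0.60 (adjusted p = 0.0126). The Toll-like receptors that passed were lower: Tlr5, the flagellin receptor, by -1.13 (adjusted p = 0.0126), Tlr2 by -0.67 (adjusted p = 0.0135) and Tlr4 by -0.43 (adjusted p = 0.0436). Stat3, through which IL-22 acts, had -0.10 (adjusted p = 0.632), and Nfkbiz 0.21 (adjusted p = 0.594). Of 28 other antimicrobial genes tested, 2 passed upward and 2 downward, again beside 16.9% of all genes tested. Their median log2 fold change was 0.51. Those that passed were Pglyrp1, a peptidoglycan recognition protein (0.98, adjusted p = 0.0101), Ang, another angiogenin gene (0.71, adjusted p = 0.00745), and the Lyz2 and Saa2 described above. Of 21 alternative settings, Lyz2, Ang and Pglyrp1 passed in 20 each, Cebpd, Nod1, Tlr2 and Tlr5 in 19 each, Tgfbr1 in 18 and Saa2 in 14, while Fcgrt passed in 10 and Tlr4 in 9.

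**Figure D5:**
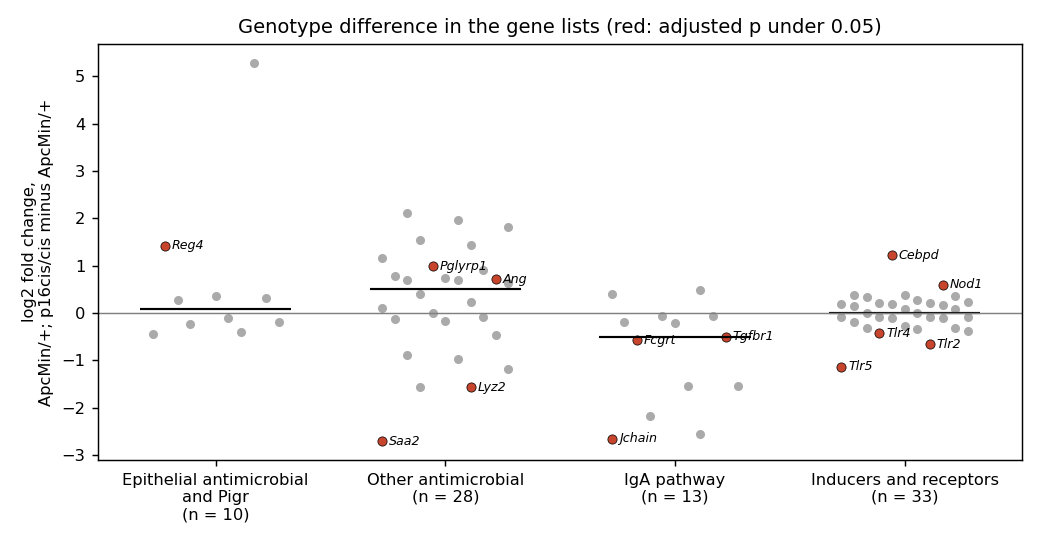
The log2 fold change (vertical axis, ApcMin/+; p16cis/cis minus ApcMin/+, limma) of each gene tested in 4 lists, 1 point per gene, red and named where the adjusted p was under 0.05 and grey otherwise, with a line at each list's median. Reg4 alone is red among the 10 epithelial genes, the highest point, Ang4, is grey, and all 3 red genes of the IgA pathway lie below 0.

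Per kilobase of the longest protein-coding transcript, the mean levels in ApcMin/+ mice fell in the order Lypd8, Pigr, Reg4, Saa1, Ang4, Reg3b, Reg3g, Lyz1, Saa3 and Lcn2. The place of Ang4 does not hold for every control. Its mean was 6172 ± 11077 (SD, n = 5) per kilobase, with 41.3 in the lowest control and 25601 in the highest. The means per kilobase ran from 126403 ± 37271 (SD, n = 5) normalized counts for Lypd8 and 28512 ± 3486 (SD, n = 5) for Pigr down to 51.5 ± 16.9 (SD, n = 5) for Saa3 and 14.8 ± 6.54 (SD, n = 5) for Lcn2. Of neighbors in this order, the values of the mice did not overlap between Lypd8 and Pigr or between Saa3 and Lcn2, and overlapped in the other 7 cases. Together the 10 genes took 1.30% to 2.31% of the reads of a library.

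The 10 genes differed widely in how much they varied among mice of 1 genotype. On the log2 scale the SD within genotype was 3.35 for Ang4, 1.81 for Reg3b, 1.35 for Lyz1, 1.32 for Reg3g, 1.24 for Lcn2, 0.85 for Reg4, 0.65 for Saa1, 0.56 for Saa3, 0.42 for Lypd8 and 0.16 for Pigr. The median over all genes tested was 0.26, so Pigr alone of the 10 varied less than the median gene. No single mouse was high throughout. ApcMin/+; p16cis/cis replicate 4 had the highest Reg4, Ang4, Saa1 and Pigr of the 9 mice and the lowest Reg3b and Reg3g, and ApcMin/+ replicate 4 had the highest Reg3g and Lyz1 of its genotype with the lowest Pigr of all. Reg3g was not related to Saa1 (r = -0.40, exact permutation p = 0.289), Lcn2 (r = -0.07, exact permutation p = 0.827) or Pigr (r = -0.53, exact permutation p = 0.134) at adjusted p-values of 0.336 to 0.827, and the rho values of the 3 pairs were -0.2, -0.4 and -0.25 (each with an adjusted p of 0.613 in the permutation test). For each of these 3 pairs r turned positive without the 2 mice farthest from the median of Reg3g, at 0.18, 0.15 and 0.47, so the negative values rest on those mice.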

How the data were processed

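RNA-seq was measured in colonic mucosa of 9 mice, each mouse being 1 replicate, grouped by the genotype of the labels. Per the methods, RNA came from colonic crypts, libraries were run on the BGISEQ-500 platform, BOWTIE2 was the aligner, RSEM gave the level of each gene and DESeq2 compared the genotypes. Genome build, annotation, strand setting and tool versions are not given in the sources used here. The authors deposited 1 table of signal values, normalized counts in which each gene count is divided by a size factor of the mouse. Dividing each value by the value of 1 read gave whole reads for 100% of the positive values, to within 0.01 reads. Shares and floors of 3 reads cover counting error only.

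The 10 genes and all gene lists were chosen with earlier results of these data known. The main test was limma 3.58.1 (R 4.3.3, trended variance) on log2(normalized count + 1) over 14410 genes with at least 10 normalized counts in at least 4 mice, with Benjamini-Hochberg adjustment over all of them. Fold changes on this scale understate those of low genes. On simulated data the procedure was tested before use. Single genes were compared by exact permutation, two-sided. Alternatives were the count tests of DESeq2 1.42.0 and edgeR 4.0.16 on recovered reads, other scalings, pseudocounts and filters, a covariate (sex or mitochondrial share), females alone, the replicate block and leaving out each mouse. The model by genotype and sex and the permutation within sex were added after seeing the data. Named genes are the 10, the genes of each list past the thresholds, the 3 genes most like Reg3g, Lypd8, Reg4 and Pigr by Pearson's r (1 of them is not reported here), markers at 0 in every mouse, and others marked as named after their values were seen or given as a check of a marker list. Same-numbered mice of the 2 genotypes had correlations of -0.18, 0.07, 0.05 and 0.14 in their deviations from the group means, so the numbers do not pair the mice. Coordinates and transcripts are from GENCODE M21 (GRCm38), in which 54079 of 54146 identifiers were found, and upstream sequences from RefSeq (GRCm38.p6).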

Additional observations from a re-analysis of the deposited data

Results flagged for a closer look

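Of 20 sets of values (10 genes in 2 genotypes), 4 held a mouse whose gap to its nearest neighbor was large against the range of its group. Chance gives about 1 in 20 for values spread as a normal curve. The gaps were taken on normalized counts, not on the log2 scale of the tests above, so no excess over chance is read from the 4. Reg3g was high in ApcMin/+ replicate 4 (551.7 normalized counts, gap 0.766 of the range). Reg4 was high in ApcMin/+; p16cis/cis replicate 4 (87046 normalized counts, gap 0.877). Ang4 was high in ApcMin/+ replicate 5 (18151 normalized counts, gap 0.802) and in ApcMin/+; p16cis/cis replicate 4 (45249 normalized counts, gap 0.876). The same mouse thus held the high values of Reg4 and Ang4 in its group.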

How the results depend on the processing

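The 1 call among the 10 genes was 0 with DESeq2, a pseudocount of 0.1, sex or the mitochondrial share as a covariate and in females alone, and 2 with no filter, with at least 10 normalized counts in every mouse and with the replicate block. The count past the adjusted p alone was 0 with a pseudocount of 0.1, sex or the mitochondrial share in the fit and in females alone, and 2 with no filter, the stricter filter and the replicate block. Leaving out each mouse gave 0 to 2 for both counts. The replicate block gave Ang4 6.73 (adjusted p = 0.0153), the value without ApcMin/+ replicate 5, which has no partner, and changed no other call among the 10. The mitochondrial share turned Ang4 to -1.37, Reg4 to -0.20, Lyz1 to -0.72 and Reg3g to 0.68. None of the other log2 fold changes that turned in sign passed a threshold. That of Reg3b was 0.12 with edgeR (TMM), 0.12 with edgeR (RLE) and 0.11 with DESeq2, that of Lyz1 -0.43 with edgeR (TMM), -0.43 with edgeR (RLE) and -0.44 with DESeq2, that of Lcn2 0.37 with edgeR (TMM), 0.38 with edgeR (RLE) and 0.39 with DESeq2, that of Saa1 0.0503 with edgeR (TMM), 0.0582 with edgeR (RLE) and 0.0584 with DESeq2, and that of Reg3g 0.000998 with edgeR (TMM), 0.00606 with edgeR (RLE) and 0.000363 with DESeq2. Lcn2 was also 0.0576 with a pseudocount of 10, 0.36 in females in both fits, and 0.0045 with the replicate block, Saa1 was 0.0301 in females in both fits, and Reg3b was 0.43 within males. Without each mouse the ranges were -1.09 to 0.74 for Reg3b, -0.94 to 0.45 for Reg3g, -0.15 to 0.89 for Lyz1, -0.83 to 0.61 for Lcn2 and -0.46 to 0.18 for Saa1. The cause of these turns was not tested. Lypd8, Pigr and Saa3 kept their sign in 23 alternatives each, and Pigr passed in 1 of them. Over all genes, 501 were called, 599 with DESeq2, 331 with sex as a covariate, 286 in females, 0 with the mitochondrial share as a covariate, and 281 to 755 without 1 mouse (281 without ApcMin/+; p16cis/cis replicate 4, 755 without ApcMin/+ replicate 4). Lcn2 had the lowest depth of the 10, 1 to 29 reads per library.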
